A study of Sus scrofa with 14 samples.

Results

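The step from embryonic day 60 (E60) to embryonic day 80 (E80) in pig cortex was examined for circular RNAs (circRNAs), which were counted by sequencing reads that cross a backsplice junction. The E60 and E80 cortex are 2 of the 14 embryonic brain samples of the series, each the only library of its group, and the labels give neither the animal nor its sex. Both were dissected fetal cortex of Sus scrofa with no treatment named. RNA longer than 200 nt was freed of ribosomal RNA (Ribo-Zero) before library preparation with the ScriptSeq v2 kit. The circRNAs are the lines of the deposited cortex table whose 6 library columns add up to the stated total of the line, which holds for 4997 of 5585 lines. Of these, 1578 had reads in both libraries, 1475 at E60 alone, 515 at E80 alone and 1429 in neither. A comparison of single circRNAs was limited to the 245 with at least 20 reads at E60 and E80 together, which held 47.2% of the circRNA reads at E60 and 48.9% at E80. At that limit, 12 circRNAs had exactly 20 reads and 23 had 19. With 1 library a side no test over samples was possible, so every interval below is a 95% interval of counting error and none covers the spread between animals.

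A circRNA is made when the splicing machinery joins a splice donor to an acceptor upstream of it, which closes the RNA between them into a loop. A loop has no free ends and resists exonucleases, so circRNAs are as a rule longer lived than the linear transcripts of the same gene (the host gene). They are known to be abundant in the mammalian brain and many come from genes with roles at synapses.

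The level of circRNA was lower at E80 than at E60. The E60 cortex had 17336 circRNA reads in a library of 21.4 M reads, which is 809.6 reads per M library reads (RPM; exact Poisson interval 797.6 to 822). The E80 cortex had 8098 circRNA reads in 26.6 M reads, which is 304 RPM (297 to 311). The level at E80 was thus 0.376 of that at E60 (exact conditional interval 0.366 to 0.386), a 2.66-fold lower level (2.59 to 2.73), although the E80 library was the larger. In tissue samples, fewer cells of a type and less circRNA per cell cannot be told apart. Reads of the lines left out, 8.83% of all at E60 and 10.9% at E80, had a level ratio of 0.475 (0.439 to 0.514).

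At least 2 reads were found for 2325 circRNAs at E60 and for 1283 at E80. With the E60 library drawn down to the 8098 circRNA reads of E80, the expected number was 1291, against the 1283 found. With 1 read as the minimum, 2336 were expected and 2093 found, and with 3 reads 754 and 711. The number found at E80 was thus below the number expected at each minimum, by the least at 2 reads. The 10 most abundant circRNAs took 11.05% of the circRNA reads at E60 and 12.2% at E80. Host names that are small nucleolar RNAs, a class of short RNAs that guide RNA modification, also stood out at E60. Their FPKM (fragments per kb of transcript per M fragments) summed over 22 names was 500913 at E60 and 129654 at E80, beside 170991 in the E23 forebrain, 261998 at E42, 87869 at E100 and 64274 at E115, and 14 of the 22 were highest at E60. Of the 22, SNORA31, SNORD22, SNORD63 and SNORD70 had an FPKM of 0 on each of these days and so no highest day. The part of the difference in small nucleolar RNAs between the libraries in the circRNA levels was not tested.

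Single circRNAs departed from this bulk difference in both directions. The share ratio of a circRNA is its share of all circRNA reads at E80 over that at E60, so that 1 means a level lower by as much as the bulk. Past a 2-fold share ratio, with 0.5 reads added on each side, 49 of 245 circRNAs (20%) had a higher share at E80 and 57 (23.3%) a lower one, and 139 lay within 2-fold. The counting interval of the share ratio lay above 1 in 48 (19.6%) and below 1 in 51 (20.8%). Share ratios ran from -4.83 to 3.66 on the log2 scale with a median of -0.29. In terms of level, 210 circRNAs had a lower RPM at E80 and 35 (14.3%) a higher one. The interval of the level ratio lay below 1 in 166 (67.8%) and above 1 in 12 (4.90%). With library totals as the scale, 8 circRNAs were past 2-fold higher and 167 lower. With the median of the ratios as the scale, which moves all share ratios by 0.32 (log2), 66 were higher and 43 lower, so that 60.6% of those past the fold were higher in place of 46.2%.

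**Figure D1:**
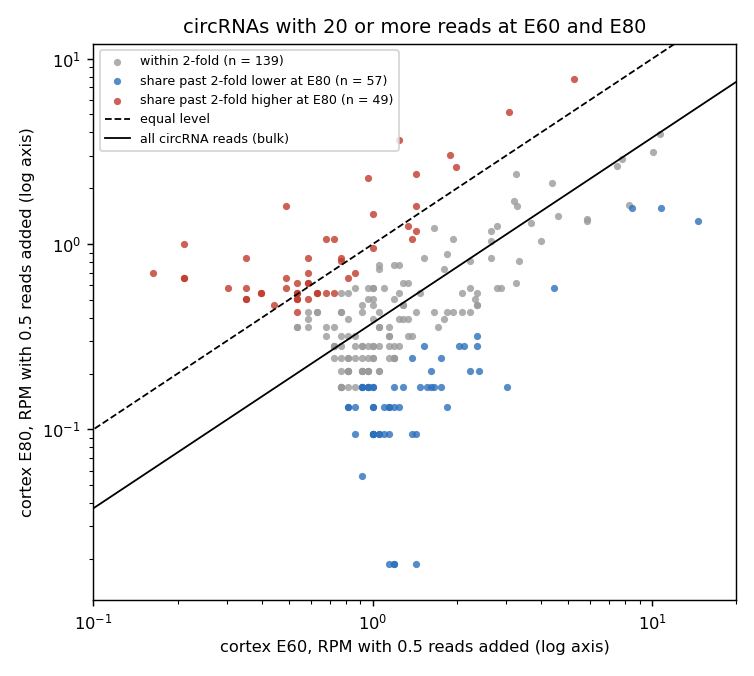
Level of each of the 245 circRNAs at E60 (x axis) and E80 (y axis), as RPM with 0.5 reads added, on log axes. Red points (49) had a share past 2-fold higher at E80, blue points (57) past 2-fold lower and grey points (139) neither; the solid line is the bulk ratio of 0.376 and the dashed line an equal level, above which 35 circRNAs had a higher RPM at E80.

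The departures from the bulk followed the genomic length between the junction ends, which is the stretch of chromosome from one end of the backsplice to the other and not the length of the circRNA itself. Junctions spanning less than 1 kb had the largest difference, and those spanning 40 kb and more the smallest. In the 493 circRNAs under 1 kb, reads were 2404 at E60 and 594 at E80, a level of 112 RPM (108 to 117) against 22.3 (20.5 to 24.2) and thus 5.03-fold lower at E80 (4.60 to 5.52). In the 606 circRNAs of 40 kb and more, reads were 2177 and 2112, a level of 102 RPM (97.4 to 106) against 79.3 (75.96 to 82.8), or 1.28-fold lower (1.21 to 1.36). The classes between formed a graded series. The level was 3.43-fold lower (3.23 to 3.64) for 1 to 5 kb, 3.08-fold lower (2.94 to 3.22) for 5 to 20 kb and 2.20-fold lower (2.06 to 2.35) for 20 to 40 kb. None of these intervals overlapped that of a class beside it, though those of 1 to 5 kb and 5 to 20 kb nearly met, with bounds at 3.23 and 3.22.

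As shares of all circRNA reads, the class of 40 kb and more held 12.6% at E60 (12.1 to 13.1) and 26.1% at E80 (25.1 to 27.1), a share ratio of 2.08 (1.96 to 2.21). Junctions under 1 kb held 13.9% (13.4 to 14.4) and 7.34% (6.78 to 7.92), a share ratio of 0.529 (0.483 to 0.579). The long class was not set by a few members, since without its 10 most abundant circRNAs the share ratio was 2.02 (1.87 to 2.18), whereas that under 1 kb was 0.614 (0.549 to 0.685). Of the 43 circRNAs of 40 kb and more with 20 reads, 28 had a share past 2-fold higher at E80 and 1 a lower one, with a median share ratio of 3.07. Of the 29 under 1 kb, 1 was past 2-fold higher and 16 lower, with a median of 0.472. The median genomic length was 46.9 kb in the 49 circRNAs with a higher share, 4.02 kb in the 57 with a lower share and 10.4 kb in all 245. Across the 245 circRNAs, Spearman's rho of genomic length with the share ratio was 0.54 and Pearson's r on log scales was 0.53. Those are descriptions over circRNAs that share the same pair of libraries. These classes were chosen after the values had been seen.

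**Figure D2:**
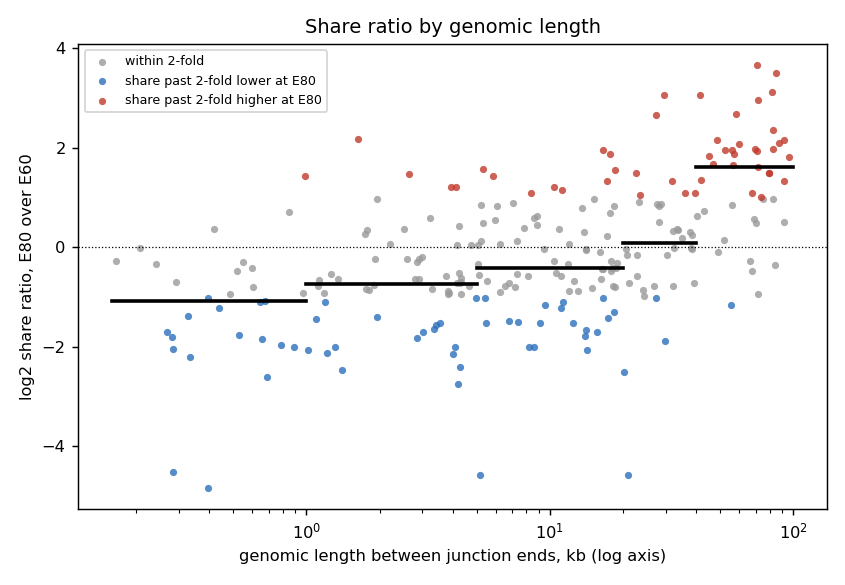
Share ratio (log2, E80 over E60, y axis) of the 245 circRNAs against the genomic length between their junction ends (kb, log axis), coloured as past 2-fold higher (red), past 2-fold lower (blue) or neither (grey). Black bars are the medians of the 5 length classes, from 0.472 under 1 kb to 3.07 at 40 kb and more; 28 of 43 circRNAs in the longest class lie past 2-fold higher and 1 past 2-fold lower.

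The length pattern had exceptions in both directions. Of the 49 circRNAs with a share past 2-fold higher at E80, 14 spanned under 20 kb, of which 9 spanned 5 to 20 kb, and of the 57 with a lower share 4 spanned 20 to 40 kb. The 5 circRNAs under 5 kb with a share past 2-fold higher at E80 came from CDR1, PTP4A1 (13 and 14 reads at E60 and E80), S100PBP (13 and 14), FKBP8 (11 and 14) and PGP1A (16 and 21). The 1 circRNA of 40 kb and more with a lower share came from ENSSSCG00000027870 on chromosome 4 (57774063 to 57829267), with 21 reads at E60 and 4 at E80. Its interval reached from 0.102 to 1.21, so its share was not apart from the bulk beyond counting error. Long lines were also less uniquely read, since 69.3% of their reads were unique against 73.8% to 80.7% in the other classes. More than 1 host name stood in 12.2% of the long lines and in 5.42% to 7.26% of the others, and the part of both in the length pattern was not tested. With lines of 1 host name only, the share ratio of the long class was 2.18.

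The length pattern was also described in libraries outside the step. In the cortex at E100 over that at E42, which shares no library with the step, the share ratio was 1.75 (1.67 to 1.84) for 40 kb and more and 0.608 (0.559 to 0.660) under 1 kb. The long class held 20.9% of circRNA reads in the E23 forebrain, then 17.5%, 12.6%, 26.1%, 30.7% and 34.3% in the cortex of the 5 later days in order. Its level was 59.4, 112, 102, 79.3, 82.9 and 74.1 RPM over the same libraries. The class under 1 kb had 23.96, 66.95, 112, 22.3, 17.1 and 12.5 RPM. The long class thus had its lowest share at E60 and its level lay between 74.1 and 82.9 RPM from E80 on, while the short class was highest at E60 and lower at each later day. In the deposited table of brain regions, the E60 cortex had the lowest share of long junctions, 10.6% against 16.3% to 20.7% in the 4 other regions of that day. At E115 it was 25.1% in the cortex and 17.2% to 21.4% in the others.

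**Figure D3:**
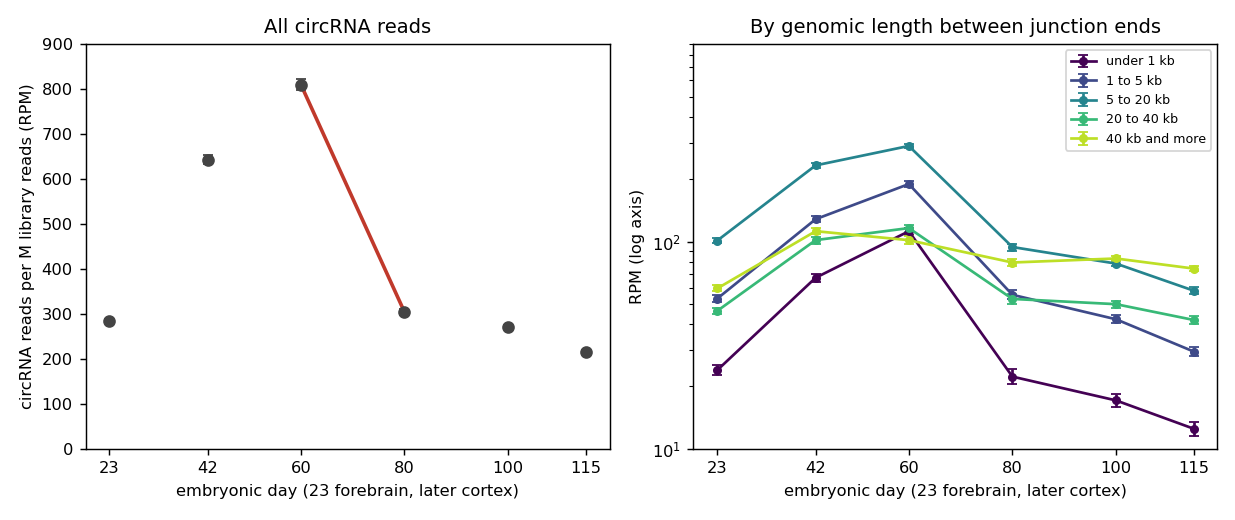
Left, level of all circRNA reads (RPM) in the E23 forebrain and the cortex of the 5 later days, with exact Poisson intervals and the E60 to E80 step joined by a red line from 809.6 to 304. Right, the same (log axis) in 5 classes of genomic length between the junction ends; under 1 kb the level is 112 at E60 and 22.3 at E80, and at 40 kb and more 102 and 79.3.

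Unlike the bulk, 12 circRNAs had a level at E80 above that at E60 beyond counting error. Level and share ratios differ by a constant factor, the bulk ratio. The 12 are therefore by construction those with the largest share ratios by the bound of the interval nearest to 1. Of them, 9 spanned 40 kb and more, 2 spanned 20 to 40 kb and 1 was shorter. Positions are on Sscrofa10.2. The largest lower bound was that of a circRNA of ENSSSCG00000025844 on chromosome 17 (14861638 to 14933362, plus strand, 71.7 kb). It had 38, 34, 26, 96, 130 and 131 reads at E23, E42, E60, E80, E100 and E115. Its level was 1.21 RPM at E60 (0.793 to 1.78) and 3.60 at E80 (2.92 to 4.40), 2.97-fold higher (1.91 to 4.77), with a share ratio of 7.90 (5.08 to 12.7). The E80 level was above those of both earlier cortex libraries and of both later ones.

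MSH3, a protein of DNA mismatch repair, was the host of a circRNA of 70.8 kb on chromosome 2 (91264177 to 91335022). It had 42, 15, 4, 26, 49 and 51 reads over the 6 libraries, and a level of 0.187 RPM at E60 (0.0509 to 0.478) against 0.976 at E80 (0.638 to 1.43). Its share ratio of 13.9 was the largest and rests on 4 reads at E60, which gives a wide interval (4.83 to 54.9). LAP3, a leucine aminopeptidase, had a circRNA of 29.6 kb on chromosome 8 (12379709 to 12409262) with 99 reads at E23 and then 19, 4, 17, 22 and 26. Both circRNAs had their lowest level of the 6 libraries at E60. The E80 level of MSH3 was the second highest, after 1.01 RPM at E100, and that of LAP3 was below 1.68 RPM at E23 and 0.712 at E42.

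LRRC9 (chromosome 1, 210044043 to 210128769, 84.7 kb) had 3 reads at E60 and 18 at E80, with a share ratio of 12.8 (3.75 to 68.1). It had 4, 7, 10 and 6 reads at E23, E42, E100 and E115, so that its level of 0.676 RPM at E80 was the highest of the 6. Its host gene had an FPKM of 9.74 at E60 and 37.9 at E80.

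The CDR1 locus is known in human and mouse for one of the most abundant circRNAs of the brain. The table has 1 compared circRNA there, on chromosome X (131493485 to 131495109, plus strand, 1.62 kb), and the name is that of the table. It had 11, 72, 65, 137, 123 and 120 reads over the 6 libraries. Its level was 3.04 RPM at E60 (2.34 to 3.87) and 5.14 at E80 (4.32 to 6.08), or 1.69-fold higher (1.25 to 2.31), with a share ratio of 4.51 (3.34 to 6.16). It was the only one of the 12 that spanned under 20 kb, and its E80 level was the highest of these 6 libraries.

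The most abundant of the 12, from ENSSSCG00000020975 on chromosome 13 (210806110 to 210875564, 69.5 kb), had 114, 176, 112, 207, 437 and 449 reads. Its level was 5.23 RPM at E60 (4.31 to 6.29) and 7.77 at E80 (6.75 to 8.91), with a share ratio of 3.96 (3.13 to 5.02). A circRNA with no host name on chromosome 9 (19582066 to 19609249, 27.2 kb) had 3, 19, 20, 60, 140 and 147 reads and a share ratio of 6.42 (3.82 to 11.2). Its reads per M were higher at E80 than in any earlier library and higher again at E100 (0.934, 2.25 and 2.88 RPM at E60, E80 and E100). The other 5 hosts were ENSSSCG00000000377 (10 and 42 reads at E60 and E80), ENSSSCG00000027460 (4 and 17), ENSSSCG00000021381 (40 and 80), ENSSSCG00000028803 (30 and 63) and ENSSSCG00000029487 (7 and 22). All 5 spanned 41.5 to 91.7 kb and had share ratios from 4.28 to 9.10.

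**Figure D4:**
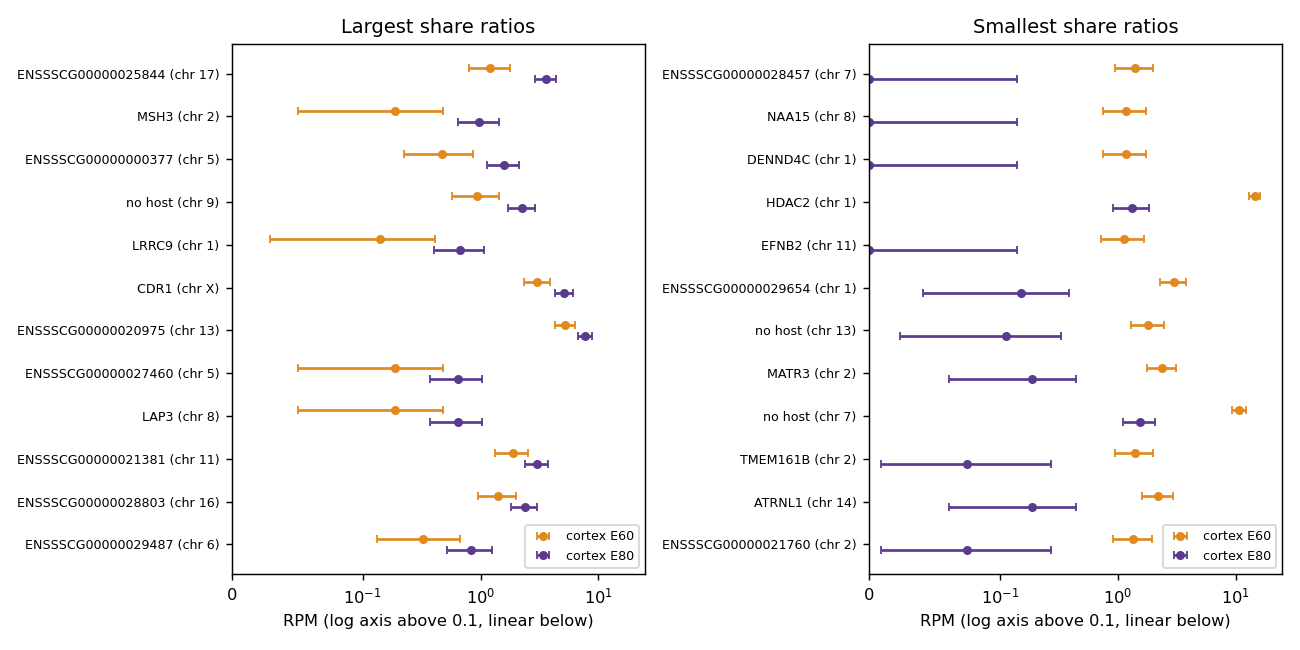
Levels at E60 (orange) and E80 (purple) in RPM, with exact Poisson intervals, of the 12 circRNAs with the largest (left) and the 12 with the smallest share ratio by the bound nearest to 1; the axis is linear below 0.1 and logarithmic above. On the left E80 lies above E60 in all 12, and on the right below it in all 12, with 4 of them at 0 reads at E80.

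At the other end of the ranking by interval bound, 4 of the 245 circRNAs had no read at E80. A count of 0 allows up to 3 reads, or 0.113 RPM in the E80 library. Folds of these are given against that value, with the E60 count taken as exact. They were circRNAs of ENSSSCG00000028457 (chromosome 7, 132158912 to 132159305; 30 reads at E60), NAA15 (chromosome 8, 93287563 to 93308596; 25), DENND4C (chromosome 1, 227181487 to 227186649; 25) and EFNB2 (chromosome 11, 81586451 to 81586734; 24). Against that value their levels were 12.4-fold, 10.4-fold, 10.4-fold and 9.95-fold lower at E80. The exact conditional intervals of the fold, which also cover counting error at E60, began at 9.51, 7.82, 7.82 and 7.49. NAA15 is a subunit of an N-terminal acetyltransferase, DENND4C an activator of Rab GTPases and EFNB2 an ephrin ligand of axon guidance. Another NAA15 junction with the same start, ending at 93308599, had 124 reads at E60 and 35 at E80. The EFNB2 circRNA had 0, 8, 24, 0, 1 and 0 reads over the 6 libraries. That of ENSSSCG00000028457 had 3, 17, 30, 0, 0 and 110, so that its reads at E115 exceeded those at E60.

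The most abundant circRNA at E60 was a 283 bp junction of HDAC2 on chromosome 1 (89940534 to 89940816, minus strand), a histone deacetylase gene. It had 139, 298, 311, 35, 51 and 9 reads. Its level was 14.5 RPM at E60 (12.95 to 16.2) and 1.31 at E80 (0.915 to 1.83), 11.1-fold lower (7.78 to 16.2), with a share ratio of 0.241 (0.165 to 0.342). A second HDAC2 circRNA (89946850 to 89947529) had 29 and 6 reads. The FPKM of HDAC2 itself was 150 at E60 and 72.4 at E80, a ratio of 0.483.

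A junction of 328 bp with no host name on chromosome 7 (69988389 to 69988716) had 55, 121, 230, 41, 76 and 48 reads, and its level was 10.7 RPM at E60 and 1.54 at E80 (6.98-fold lower, 4.99 to 9.98). ENSSSCG00000029654 (64 and 4 reads), MATR3 (51 and 5), ATRNL1 (47 and 5), TMEM161B (30 and 2), ENSSSCG00000021760 (29 and 2) and a junction without a host on chromosome 13 (39 and 3) completed the 12 smallest share ratios as ranked by the upper bound of their intervals, the bound nearest to 1. MATR3 is an RNA-binding protein of the nuclear matrix. The share ratios of these 6 ran from 0.134 to 0.228.

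Among circRNAs with at least 100 reads, the 5 nearest to the bulk were of CSPP1, TLK1, RIMS2 and ZEB1. CSPP1, a gene of centrosomes and cilia, had 228 reads at E60 and 104 at E80, a level of 10.6 RPM (9.31 to 12.1) against 3.91 (3.19 to 4.73) and a share ratio of 0.976 (0.767 to 1.24). A pair of circRNAs of the kinase TLK1 had 166 and 76 reads (share ratio 0.980, 0.737 to 1.29) and 160 and 70 reads (0.937, 0.697 to 1.25). RIMS2, of the presynaptic active zone, had 215 and 83 reads (0.826, 0.634 to 1.07), and ZEB1, a transcriptional repressor, 78 and 34 (0.933, 0.605 to 1.41). Each of these intervals holds 1, which does not show that the shares were equal. Of the 12 circRNAs with most reads, only those of CSPP1, RIMS2 and TLK1 had intervals that hold 1. Those of ENSSSCG00000020975 and CDR1 lay above the bulk, and the HDAC2 and chromosome 7 junctions named above lay below it. The other members of the 12 were also below the bulk. They were ENSSSCG00000014268 (180 and 41 reads, share ratio 0.488), PTGES3, a co-chaperone (176 and 43, 0.523), MORC3 (125 and 36, 0.617) and a second NAA15 junction (124 and 35, 0.604), all with intervals below 1.

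Where 1 host had several compared circRNAs, their ratios were mostly not apart beyond counting error. In 2 of 17 such hosts there were circRNAs whose share ratios had intervals that did not overlap. One was ENSSSCG00000020975, where the 69.5 kb junction had a share ratio of 3.96 and one of 38.1 kb (18 and 8 reads) 0.951 (0.358 to 2.30). The other was NAA15, whose junctions share a start and end 3 bases apart. The one ending at 93308599 had 124 and 35 reads (0.604, 0.403 to 0.886), and the one ending at 93308596 had 25 and 0 (0 to 0.340). In 10 hosts, junctions of 40 kb and more could be set beside shorter ones of the same gene. The long ones had the higher share ratio in 9, but the intervals were apart in 1, ENSSSCG00000020975 (116 and 207 reads in long and 38 and 16 in shorter junctions). The exception was TBC1D22A, with ratios of 0.745 (0.288 to 1.72) and 2.14 (0.914 to 5.01).

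Grouped by the role of the host gene, most lists lay near the bulk. The median genomic length of their compared circRNAs ran from 2.24 kb (Wnt) to 25.7 kb (centrosome and cilium). The part of length in the list ratios was not tested. Hosts of synaptic proteins (31 of 88 listed genes were hosts) had 531 reads at E60 and 244 at E80, and a share ratio of 0.984 (0.842 to 1.15). None of their 5 compared circRNAs was past 2-fold, against 20% higher and 23.3% lower among all 245. Their host genes had a median log2 FPKM difference of 0.42, with 5 past 2-fold higher and 1 lower, beside 0.04 over all 2240 hosts with at least 1 FPKM, of which 171 (7.63%) were past 2-fold higher and 128 (5.71%) lower. SYN2, a protein of synaptic vesicles, had 1 circRNA read at E60 and 15 at E80, and its FPKM was 4.32 and 16.3. RIMS2 had an FPKM of 35.1 at E60 and 11.8 at E80. SNAP91, of vesicle endocytosis, had 76 and 28 circRNA reads.

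Chromatin regulators (48 of 92 listed genes were hosts) had 1019 and 325 reads, a share ratio of 0.683 (0.601 to 0.774), with 0 of 12 compared circRNAs past 2-fold higher and 4 lower. Without the abundant HDAC2 junction the ratio was 0.877 (0.762 to 1.01), so the list rests in part on it. MORC3 had 222 and 65 reads over 11 circRNAs (0.627), whereas the chromatin remodeller CHD2 (30 and 22) had a share ratio of 1.57 with an interval that holds 1 (0.863 to 2.81). Cell cycle genes (28 of 78) had 124 and 40 reads and a ratio of 0.691 (0.471 to 0.993), with none at 20 reads. Their host genes had a median log2 FPKM difference of -0.36, with 0 past 2-fold higher and 4 lower. CLASP2, the most read of these hosts, had 26 and 14 circRNA reads (1.15, 0.556 to 2.29). PDS5A, which binds cohesin, had 18 and 1 (0.119, 0.00285 to 0.753), and its part in the list ratio was not tested.

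Wnt pathway hosts (12 of 44) had the lowest ratio among the pathway lists, with 118 and 27 reads and a ratio of 0.490 (0.310 to 0.749). Both of their compared circRNAs were past 2-fold lower, against 23.3% of all 245. The interval of the LRP6 circRNA (19 and 4 reads) held 1 (0.112 to 1.36). The kinase GSK3B had 30 and 2 reads (0.143, 0.0165 to 0.562) and the Wnt co-receptor LRP6 33 and 7 (0.454, 0.170 to 1.04). Hosts with fewer reads lay on both sides of the bulk with intervals that hold 1. Among them were TNIK (15 and 2, 0.285, 0.0317 to 1.23) and NFATC3 (9 and 5, 1.19, 0.313 to 3.95). The median log2 FPKM difference of the 12 hosts was 0.00. Hosts of TGF-beta and BMP signalling (7 of 33) had 167 and 88 reads and a ratio of 1.13 (0.861 to 1.47). Among them the receptor BMPR2 had 36 and 9 reads (0.535, 0.227 to 1.13) and the mediator SMAD4 26 and 19 (1.56, 0.818 to 2.94).

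RNA-binding hosts (38 of 96) had 636 and 287 reads and a ratio of 0.966 (0.837 to 1.11), with 2 of 11 compared circRNAs past 2-fold higher and 2 lower. Higher shares were seen for the splicing regulator RBM6 (40 and 43 reads, 2.30, 1.46 to 3.63) and PAIP1, a partner of the poly(A)-binding protein (16 and 28, 3.75, 1.96 to 7.41). The helicase DHX36 (43 and 8, 0.398, 0.162 to 0.857) and the exonuclease XRN1 (41 and 9, 0.470, 0.201 to 0.982) had lower ones. Centrosome and cilium hosts (18 of 57) had 356 and 179 reads and a ratio of 1.08 (0.894 to 1.29), with 0 of 4 past 2-fold.

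Axon guidance and adhesion hosts (29 of 95) had 200 and 101 reads and a ratio of 1.08 (0.842 to 1.38), which joined opposite members. RELN, the secreted protein that guides neuron layering, had a 70.9 kb circRNA with 36, 74, 21, 38, 64 and 68 reads and a share ratio of 3.87 (2.22 to 6.95). The ephrin receptor gene EPHA3 had 39 and 6 reads (0.329, 0.114 to 0.783) and EFNB2 24 and 0. Without the RELN circRNA the ratio of the list was 0.753 (0.556 to 1.01). Hosts with circRNAs known from human or mouse brain (17 of 37) had 1659 and 719 reads and a ratio of 0.928 (0.849 to 1.01). Of 14 compared circRNAs, 1 was past 2-fold higher (CDR1) and 3 lower (2 of HDAC2 and 1 of MEF2C). Among all 245, 20% were higher and 23.3% lower. The intervals of the second HDAC2 circRNA (0.150 to 1.09) and of the MEF2C circRNA (0.0584 to 1.02) held 1. The other members of this list with 20 reads were circRNAs of RIMS1, RIMS2, TLK1, CSPP1, KAT6B and ZNF292. They ran from 0.514 (KAT6B, 25 and 6 reads) to 1.28 (the 33.1 kb junction of RIMS1, 70 and 42 reads).

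Markers of cell types were sparse among the hosts. Upper layer neuron genes (4 of 9 were hosts) had 81 and 12 circRNA reads, a ratio of 0.317 (0.157 to 0.585). MEF2C, a neuronal transcription factor, had 21 and 3 reads while its FPKM was 208 and 211. The single deep layer host with reads, ZFPM2, had 48 and 11 reads, a ratio of 0.491 (0.230 to 0.958), and an FPKM of 75.9 and 24.99. NR4A2 of the same list had no circRNA read at either day, and an FPKM of 11.6 and 13.7.

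Other types had few reads. Progenitor hosts (4 of 21) had 5 and 4 reads, and FPKM values of 28.6 and 25.4 for SOX2, 16.1 and 9.89 for TOP2A, 33.96 and 71.9 for PTPRZ1 and 3.66 and 8.45 for PROM1. The interneuron host ERBB4 had 3 and 0 reads (FPKM 26.6 and 20.1), the astrocyte host APOE 2 and 2 (163 and 276) and the vascular host FLT1 1 and 0 (1.25 and 7.81). No gene of the microglia, blood, choroid plexus or meninges lists was a host, so these cells could not be looked for in the table. ENPP2, listed for oligodendrocytes and also strongly expressed in choroid plexus, had 1 and 10 circRNA reads. Its FPKM was 10.7, 16.99, 3.36, 261, 16.1 and 10.8 over the 6 libraries and so stood out at E80 alone.

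In all, 12 of 2306 hosts had an FPKM at E80 at least 4-fold above both E60 and E100, a set looked for after the values had been seen. They included ENPP2, TBPL1 (8.67 at E60, 103 at E80 and 14.3 at E100), LCA5, DNAI2, LRRIQ1, TMEM232, C2orf73, ASPA, CPED1, IL1R1 and USP9Y. LCA5 and DNAI2 have known roles at cilia or their axonemes. USP9Y, which is on the Y chromosome, was listed at 0 at E42, E60 and E100 and at 12.4 at E80 and 11.6 at E115. The sex of the fetus and the day therefore cannot be told apart between the E60 and E80 libraries. The part of these differences in the circRNA results was not tested.

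The RPM ratios of the compared circRNAs were mostly below the FPKM ratios of their hosts. For 212 circRNAs of 193 hosts with 1 host name and at least 1 FPKM, the median log2 level ratio was -1.71 for the circRNA and -0.40 for the host. Over all 2240 hosts with at least 1 FPKM the median was 0.04. The minimum of 20 reads sums both days, of which E60 had more circRNA reads. Its part in these medians was not tested. The RPM ratio of the circRNA was below the FPKM ratio of its host in 168 and above it in 44. RPM and FPKM have different denominators, so only the spread around the median difference compares genes. Across the 212 circRNAs the log2 ratios had a Pearson's r of 0.27 and a Spearman's rho of 0.21, a description over circRNAs of the same pair of libraries. Among the 41 with a share past 2-fold higher, the median host FPKM ratio was 1.04 and 23 hosts were higher at E80. Among the 51 with a lower share it was 0.747, with 11 higher, and among the 120 within 2-fold it was 0.699, with 22 higher.

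Host FPKM varied less with genomic length than the circRNAs did. The median host ratio was 0.792 for junctions under 1 kb, 0.747 for 1 to 5 kb, 0.703 for 5 to 20 kb, 0.708 for 20 to 40 kb and 0.906 for 40 kb and more. The median circRNA level ratio of the same 5 classes was 0.181, 0.228, 0.289, 0.369 and 1.17. The largest departures above the host were MSH3 (host FPKM 15.2 and 11.2), ENSSSCG00000000377 (42.5 and 28.2), MTHFD2L, a mitochondrial folate enzyme (10 and 15 circRNA reads, host 60.8 and 17.1), PAIP1 (81.5 and 49.8) and ENSSSCG00000027460 (11.8 and 14.6). All 5 junctions spanned 41.5 to 81.6 kb. The largest departures below were the NAA15 junction ending at 93308596 (25 and 0 reads, host 14.5 and 14.0), DENND4C (host 32.9 and 21.2) and EFNB2 (29.1 and 16.99). The others were the kinase gene CDC42BPA (21 and 2 reads, host 14.2 and 26.4) and UBLCP1, a phosphatase (19 and 1 reads, host 25.9 and 24.4).

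**Figure D5:**
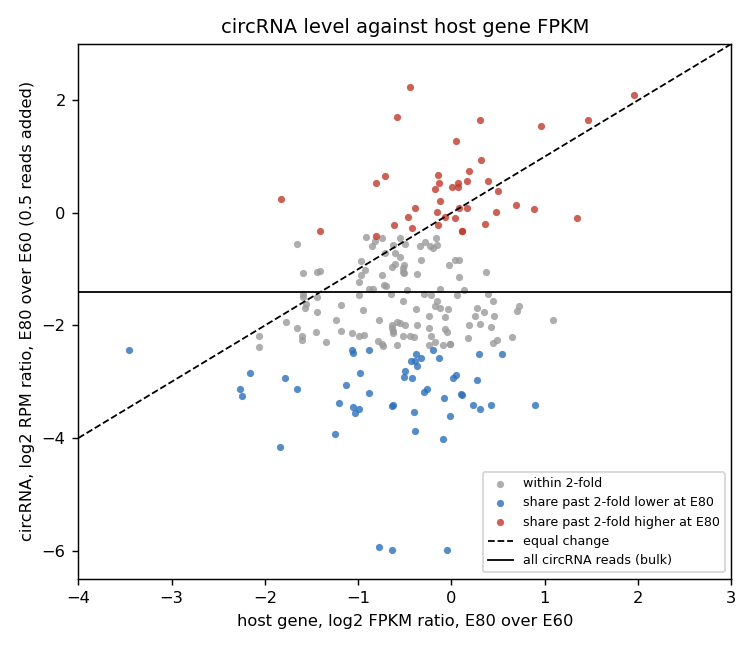
Log2 ratio of the circRNA level (RPM, 0.5 reads added, y axis) against log2 ratio of the host FPKM (x axis), E80 over E60, for 212 circRNAs with 1 host name and at least 1 FPKM. Colours mark shares past 2-fold higher (red), lower (blue) or neither (grey), the dashed line an equal change and the solid line the bulk; 168 circRNAs lie below the dashed line and 44 above it.

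The circRNAs past 2-fold were followed in libraries that the step does not use. The 49 with a higher share at E80 together held 11.001% of all circRNA reads in the E23 forebrain, and 9.02%, 5.05%, 18.96%, 18.8% and 22.4% in the cortex from the earliest day to the latest. The 57 with a lower share held, in the same order, 5.26%, 8.15%, 13.3%, 3.89%, 4.61% and 4.56%. In the E100 over the E42 cortex, the share ratio was above 1 in 38 of the 49 (median 1.82) and below 1 in 41 of the 57 (median 0.775), whereas it was above 1 in 106 of all 245 (43.3%, median 0.90). The level of the 49 was 58.0, 40.9, 57.6 and 50.9 RPM at E42, E60, E80 and E100, and that of the 57 was 52.4, 108, 11.8 and 12.5. The E60 and E80 values of both sets follow from how the sets were chosen, and those of the other days do not.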

How the data were processed

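Samples were grouped by their labels and table columns assigned by heading, with 0 value columns left without a sample. Backsplice junction reads were deposited by the authors as whole counts per library, with RPM values beside them, per the file headers. Other values, the stated total reads of a line, its unique reads and the genomic length, were also deposited, per the file headers. FPKM values of host genes were deposited per the file headers. Trim Galore, TopHat2, Cufflinks, Cuffdiff and the build Sscrofa10.2 (susScr3) are named in the submitters' processing notes. The circRNA caller is not given in the sources used here, nor are tool versions or the strand setting, so antisense transcripts cannot be told apart. Host FPKM was taken from the cortex table alone. Its E60 column had a Pearson's r of 0.71 with the regions table column headed E60 cortex and 0.96 with that headed E60 hippocampus (log2 scale, 1444 hosts), so the latter table's host values were not used. E60 cortex reads differed between the tables in 0 of 2341 circRNAs.

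Library totals were recovered as the median of reads over RPM, and what they count is not stated. Precision is limited by the 17336 and 8098 circRNA reads. Reads carry no molecular identifiers, so intervals (95%) and the limit of 3 reads behind a count of 0 cover counting error only. A circRNA was detected from 2 reads. Ratios have exact conditional (Clopper-Pearson) intervals with totals held fixed, levels exact Poisson and shares exact binomial intervals. A 2-fold share ratio with 0.5 reads added marked a departure among circRNAs of at least 20 reads. Host changes are differences of log2(FPKM + 0.1) at a minimum of 1 FPKM, and fold changes of low genes are understated by the pseudocount. Host names are the table's: 13 of the compared circRNAs have none and 17 several, and of 634 Ensembl IDs among hosts 244 were given a symbol by the gene name table (16 of 45 among compared circRNAs). The scripts used Python 3.11.15, pandas 2.3.3, numpy 2.4.6 and scipy 1.17.1 and were tested on simulated data.

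Named circRNAs are the 12 with most reads, the 12 largest and 12 smallest share ratios by the interval bound nearest to 1, those with a level interval above 1, up to 4 members per list, the 5 hosts whose circRNAs differ most, the 5 departures from the host each way, the 5 nearest to the bulk with at least 100 reads and the compared circRNAs of known circRNA hosts. Members and lists were chosen with earlier results of these data known. Length classes, hosts standing out in 1 library, small nucleolar RNAs and USP9Y were examined after values had been seen, as were list genes named with fewer reads. Scaling, read minimum, fold, pseudocount, line filter, host names and the most abundant members were varied. Sequences were not printed. Some list members are not reported here.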

Additional observations from a re-analysis of the deposited data

Results flagged for a closer look

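Lines whose library reads did not add up to their stated total were outside every comparison and still held signal, 1678 reads of the E60 cortex and 992 of the E80 cortex. Of these 588 lines, 19 reached 20 reads at both days together. The most read were those of ENSSSCG00000025221 (28 reads at E60 and 33 at E80), RPS6KA6 (26 and 17), DPP8 (21 and 20), DYNC1LI1 (23 and 15) and ELAVL2 (22 and 10). The E100 cortex had 0 reads in 95.2% of these lines, which held 0.808% of its circRNA reads. The other 5 libraries of the table had 0 reads in 27.7% to 48.6% of them, and they held 6.22% to 10.9% of those libraries' reads. At E60 and E80 the lines at 0 were 27.7% and 48.6%.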

How the results depend on the processing

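The bulk level ratio of 0.376 kept its direction with all lines (0.384) and without the most abundant circRNA (0.381). The counts past 2-fold (49 higher and 57 lower) depended on the scale and thresholds: 8 and 167 by library totals, 117 and 147 at a minimum of 10 reads, 13 and 11 at 50 reads, 68 and 99 at 1.5-fold, and 27 and 32 at 3-fold. Without the circRNA with most reads, list ratios moved to 0.877 for chromatin, 0.753 for axon guidance and adhesion, 1.09 for known circRNA hosts and, from 0.491, 0 for deep layer neurons (4 and 0 reads, interval 0 to 3.24). The share ratio under 1 kb was 0.614 without its 10 most abundant circRNAs. The E60 cortex drawn down to the E80 reads had 2336 circRNAs at 1 read and 754 at 3 reads. The other 39 recomputed values of main results moved by less than their error or 1.5-fold, as did all 135 of named circRNAs. No paired analysis was possible because each group has 1 library, and no replicate could be left out for the same reason. Depth limits single circRNAs: a share ratio past 2-fold had an interval that holds 1 in 4 of the 49 and 15 of the 57.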
